A study of Mus musculus with 91 samples.

Results

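Nampt, Sirt1, Sirt3 and Parp1 link the cell's supply of nicotinamide adenine dinucleotide (NAD) to enzymes that consume it. The 4 genes were taken by Ensembl identifier from the 14355 genes of a table of ribosome-bound mRNA counts from the mouse nucleus accumbens, and all 4 were present in it. They are Nampt (ENSMUSG00000020572, chr12:32820335-32853369), Sirt1 (ENSMUSG00000020063, chr10:63319005-63339035), Sirt3 (ENSMUSG00000025486, chr7:140863663-140882309) and Parp1 (ENSMUSG00000026496, chr1:180568891-180600999), all protein-coding, with positions from RefSeq for build GRCm38.p6. They were described by cell type and by time of day; the genes are named by identifier, with earlier results of these data known.

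The study isolated translating mRNA from the 2 classes of spiny projection neuron of the nucleus accumbens, a part of the ventral striatum. The D1 libraries came from mice carrying Drd1-Cre and the D2 libraries from mice carrying A2a-Cre, a driver of the adenosine A2a receptor gene; both lines also carried RiboTag, a Cre-inducible ribosomal protein Rpl22 with a hemagglutinin (HA) tag. Tagged ribosomes were pulled down with an anti-HA antibody from tissue punches of 1 mm pooled from 2 mice per sample, so no library stands for a single animal. The mice, male and female, were over 10 weeks old and lived under 12 h of light and 12 h of dark. Brains were taken at zeitgeber time (ZT, hours after lights on) 2, 6, 10, 14, 18 and 22, where ZT 2 to 10 fall in the light and ZT 14 to 22 in the dark. There were 45 D1 libraries (22 from males, 23 from females) and 46 D2 libraries (23 from each sex), 3 or 4 for each combination of cell type, sex and time. The titles mark the replicates of a group with letters, A to D and once E, and the sources used here do not say what a letter stands for.

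NAMPT turns nicotinamide into nicotinamide mononucleotide, the rate-limiting step by which mammalian cells salvage NAD. SIRT1, a mainly nuclear deacetylase, and SIRT3, the main deacetylase of mitochondria, split NAD at each reaction. PARP1, which builds poly(ADP-ribose) chains at DNA breaks, is another large consumer. The reactions of SIRT1, SIRT3 and PARP1 give nicotinamide back to the salvage route. In mouse liver and fibroblasts Nampt is a target of the clock activators CLOCK and BMAL1, NAD rises and falls over the day, and SIRT1 acts back on clock proteins, so these genes form a loop between the clock and metabolism.

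The activators CLOCK and BMAL1 bind the E-box, spelled CACGTG, a motif that reads the same on both strands. It was searched in promoter windows that RefSeq gives for build GRCm38.p6, each running from 250 bases before to 50 bases after a start of transcription. All 4 genes matched that table by Entrez gene identifier. The windows of Sirt1 (chr10:63338986-63339285, minus strand), Parp1 (chr1:180568641-180568940, plus strand) and Nampt (chr12:32820085-32820384, plus strand) are printed 5′ to 3′ along the gene, with each E-box in capitals. Sirt1 was the gene of the 4 with a daily rhythm that passed the test. Parp1 had no called rhythm, but its window held an E-box too, and Nampt is the known clock target.
Sirt1: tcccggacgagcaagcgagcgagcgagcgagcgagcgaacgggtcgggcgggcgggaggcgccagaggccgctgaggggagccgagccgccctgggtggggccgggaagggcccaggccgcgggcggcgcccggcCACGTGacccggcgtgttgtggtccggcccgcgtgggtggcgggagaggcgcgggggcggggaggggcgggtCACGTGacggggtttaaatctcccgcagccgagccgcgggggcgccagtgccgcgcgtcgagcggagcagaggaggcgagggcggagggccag
Parp1: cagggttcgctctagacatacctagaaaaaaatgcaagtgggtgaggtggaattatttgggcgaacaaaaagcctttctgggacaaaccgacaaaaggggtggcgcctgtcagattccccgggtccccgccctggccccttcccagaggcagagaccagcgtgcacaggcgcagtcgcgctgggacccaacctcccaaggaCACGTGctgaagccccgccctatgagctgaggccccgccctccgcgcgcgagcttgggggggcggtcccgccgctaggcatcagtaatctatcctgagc
Nampt: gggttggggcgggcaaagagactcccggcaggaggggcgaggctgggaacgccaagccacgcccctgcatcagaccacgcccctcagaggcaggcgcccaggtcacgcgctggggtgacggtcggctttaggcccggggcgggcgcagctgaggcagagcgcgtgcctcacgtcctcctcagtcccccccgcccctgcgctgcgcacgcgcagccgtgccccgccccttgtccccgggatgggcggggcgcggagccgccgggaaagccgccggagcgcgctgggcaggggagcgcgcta
The Sirt1 window held 2 E-boxes, with first bases at positions -115 and -43 from the start. The Parp1 window held 1, with its first base at position -49. The Nampt window held 0, and so did both windows of Sirt3 (chr7:140882260-140882559 and chr7:140881820-140882119, minus strand). Of 32817 such windows in the table, 7.15% held at least 1 E-box and 0.594% held 2 or more. The E-box variant CACGTT (in 4.69% of windows) and TTATGTAA, the D-box bound by PAR bZIP factors of clock output (in 0.935%), searched on both strands, were in no window of the 4 genes. All 5 windows were richer in G and C than the median window of 52.7%, from 61.0% in the first Sirt3 window to 79.0% in that of Sirt1. Of all windows, 98.6% had less G and C than that of Sirt1. The share with an E-box among windows of like G and C content was not counted, so how rare 2 E-boxes are there is not known. A match of letters is a description of the window and says nothing of binding, and a missing match concerns these windows only.

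Total counts per library ran from 8556069 to 19297403 in D1 and from 6872165 to 24665262 in D2 neurons. The 4 genes were covered in every library: counts were 335 to 1553 for Nampt, 232 to 938 for Sirt1, 67 to 326 for Sirt3 and 474 to 2145 for Parp1. As CPM (counts scaled to library totals, here adjusted by the TMM method), 80.6% of the genes in the table lay below Parp1, 72.8% below Nampt, 63.1% below Sirt1 and 37.6% below Sirt3; CPM does not account for transcript length, so the 4 levels are not ranked against each other. 3 libraries from D1 neurons of males stood apart from the rest, at ZT10 with letter B, at ZT18 with letter D and at ZT22 with letter B: 205 to 789 of the 14355 genes were at 0 in them, against 0 to 3 in the other 88. The reference table names 0 of the 14355 identifiers, so the other genes of NAD metabolism and marker genes of the labelled neurons or of other cells were not scored, and the labels were not checked in that way. CPM are relative to the library total, so they do not show how many cells or tagged ribosomes were pulled down. Levels in pulled-down RNA cannot tell less mRNA per cell apart from less of it on tagged ribosomes or from a different mix of cells.

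**Figure D1:**
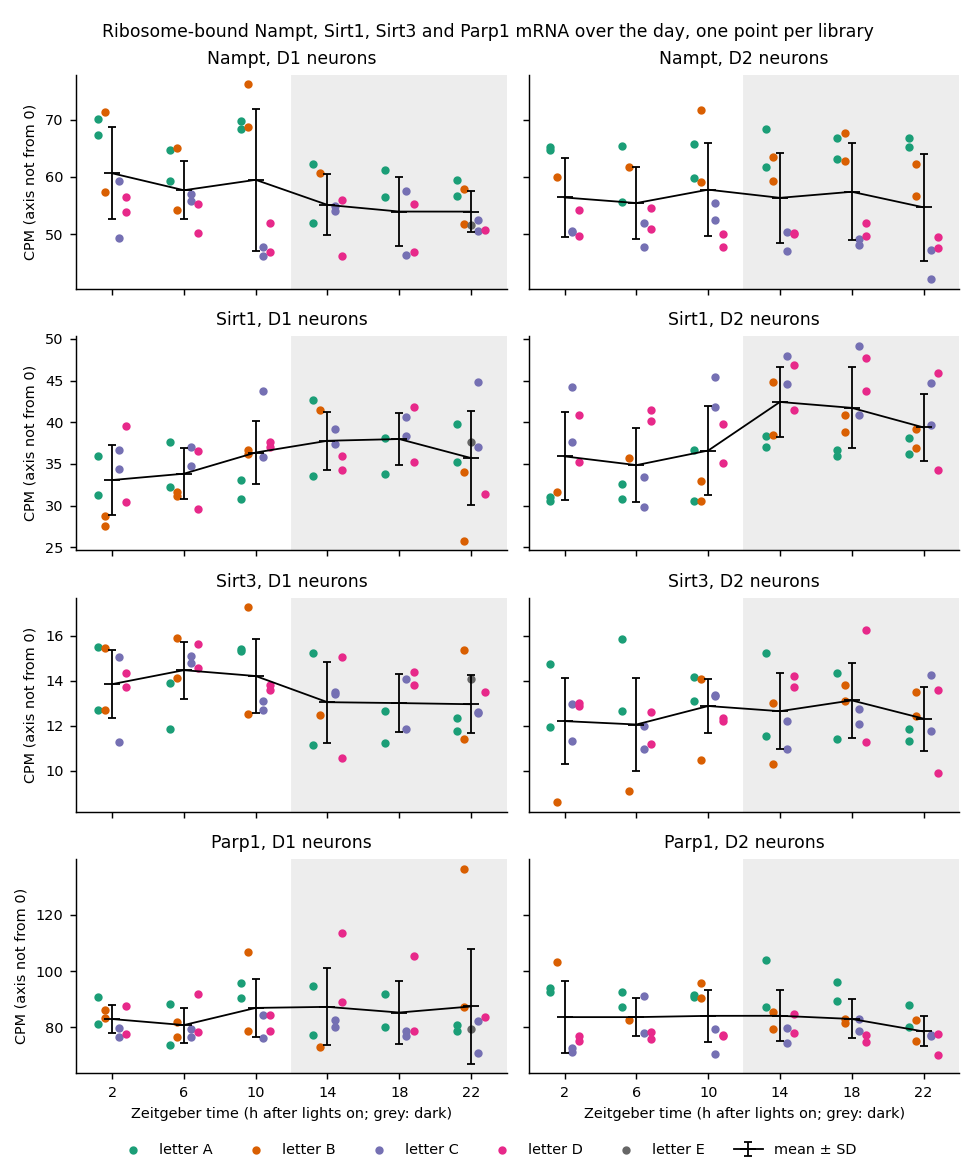
Each point is the CPM of 1 library, by zeitgeber time (horizontal axis, hours) and gene (rows), with D1 neurons on the left and D2 neurons on the right; colours are the replicate letters, black bars are means ± SD and grey marks the dark phase. Sirt1 in D2 neurons is higher in the dark, while Nampt in D2 neurons splits by letter at every time and keeps a flat mean.

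Whether the genes follow the time of day was asked first, with Sirt1 as the clearest case. In D2 neurons a 24 h rhythm of Sirt1 mRNA, with its peak in the dark phase, passed the test narrowly, and other planned settings ended the call. The lowest, median and highest of the libraries were 30.6, 35.2 and 44.2 CPM at ZT2 (n = 7), 29.9, 33.4 and 41.4 CPM at ZT6 (n = 7) and 30.5, 35.9 and 45.4 CPM at ZT10 (n = 8). At the dark times they were 37.0, 43.0 and 48.0 CPM at ZT14, 36.0, 40.9 and 49.2 CPM at ZT18 and 34.3, 38.7 and 45.9 CPM at ZT22 (n = 8 each). The medians of all 3 dark times were above those of all 3 light times, but the ranges of libraries overlapped. The fitted cosine curve had an amplitude (mean to peak) of 0.15 ± 0.04 on the log2 scale (SE), which is 1.23-fold from trough to peak, with the peak at ZT 16.9 ± 0.949 h (SE). The rhythm passed the threshold of 0.05 with an adjusted p of 0.0453 (edgeR quasi-likelihood F-test over 14355 genes, Benjamini-Hochberg). It was close to that threshold: it ranked 412 among the 422 genes called, 2.94% of all genes tested. Leaving out the libraries of letter A, B, C or D in turn kept the amplitude between 0.14 and 0.17 and the peak between ZT 16.8 and 17.1, and the adjusted p was then between 0.126 and 0.268. On all D2 libraries the call was also lost with limma voom and quality weights (amplitude 0.11, adjusted p = 0.0543) and with time as a factor (adjusted p = 0.559). With the replicate letter as a block, which pairs libraries of the same letter, the amplitude was 0.16 and the adjusted p 0.000182, where 22.3% of all genes were called.

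Fitted one by one, the letters had peaks at similar times. They are parts of the same libraries that gave the call, so they are not separate support for it. The share of all genes with peaks as close was not counted. Within letters A, B, C and D, a cosine curve fitted to the D2 libraries of each letter alone (n = 10 to 12) peaked at ZT 16.9, 17.5, 16.7 and 16.7, with log2 amplitudes of 0.14, 0.19, 0.20 and 0.11. Sirt1 averaged 41.2 ± 4.39 CPM in the D2 libraries of the dark phase (SD, n = 24) and 35.8 ± 4.90 CPM in those of the light phase (SD, n = 22). The dark mean was above the light mean in all 8 combinations of sex and letter, by 4.01 to 7.23 CPM. Of all genes in the table, 4.60% had a higher dark mean in 8 of 8 combinations in D2 neurons. Single dark libraries did not all lie above the light ones. In females of letter D, the ZT22 library held 34.3 CPM, below the 35.2, 40.1 and 35.2 CPM at ZT2, ZT6 and ZT10.

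**Figure D2:**
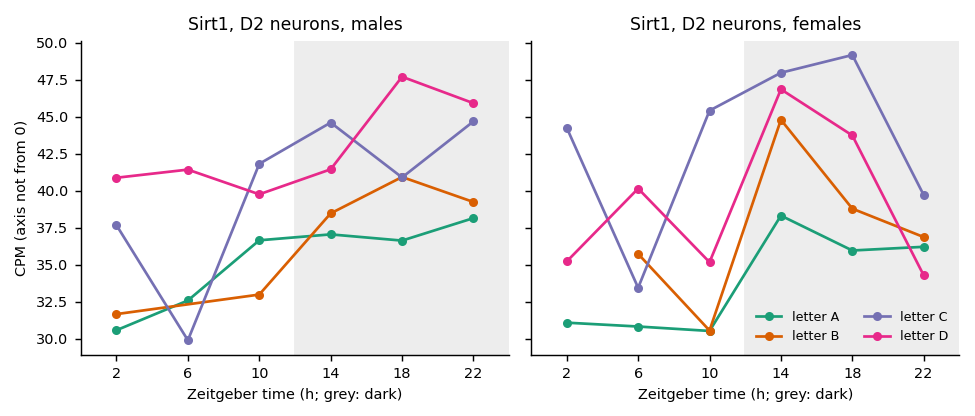
Sirt1 CPM of single D2 libraries (points) by zeitgeber time in hours, with lines joining libraries of the same letter, for males (left) and females (right); grey marks the dark phase. In each letter of each sex the mean of the dark libraries is above that of the light libraries, by 4.01 to 7.23 CPM.

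The fitted Sirt1 curve of D2 neurons peaked in the dark phase in both sexes. In males the values at ZT6 were 32.6, 29.9 and 41.4 CPM, and at ZT18 they were 36.6, 40.9, 40.9 and 47.7 CPM. In females they were 30.8, 35.7, 33.4 and 40.1 CPM at ZT6 and 36.0, 38.8, 49.2 and 43.7 CPM at ZT18. The values at both times overlapped in each sex, through letter D at ZT6. In males the mean was highest at ZT22, at 42.0 ± 3.88 CPM (SD, n = 4). In females it was highest at ZT14, at 44.5 ± 4.32 CPM (SD, n = 4). The female mean at ZT22 was 36.8 ± 2.25 CPM (SD, n = 4), no higher than that at ZT2, 36.8 ± 6.74 CPM (SD, n = 3). The log2 amplitude was 0.15 ± 0.05 (SE) in males, with a peak at ZT 17.6, and 0.16 ± 0.05 (SE) in females, with a peak at ZT 16.3. Taken alone, neither sex passed (edgeR adjusted p = 0.654 in males and 0.327 in females, where 0.237% and 0.495% of all genes passed). With the replicate letter as a block both passed (adjusted p = 0.0262 in males and 0.00982 in females, where 9.11% and 12.5% of all genes passed). The difference of the rhythms, males minus females, had an amplitude of 0.055 ± 0.075 on the log2 scale (SE) and did not pass (adjusted p = 1; 0% of all genes passed).

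In D1 neurons the Sirt1 curve had its peak at a similar time but a smaller fitted amplitude in edgeR. With limma voom and quality weights the amplitudes were alike, 0.11 in each cell type. Neither passed there (limma adjusted p = 0.0505 in D1 and 0.0543 in D2 neurons). The lowest, median and highest values were 27.6, 32.8 and 39.5 CPM at ZT2, 29.6, 33.5 and 37.6 CPM at ZT6 and 30.8, 36.5 and 43.7 CPM at ZT10 (n = 8 each). They were 33.5, 37.4 and 42.7 CPM at ZT14 (n = 7), 33.7, 38.2 and 41.8 CPM at ZT18 (n = 6) and 25.8, 36.1 and 44.8 CPM at ZT22 (n = 8). The lowest of these, 25.8 CPM, came from 1 of the 3 libraries that stand apart. The amplitude was 0.10 ± 0.04 on the log2 scale (SE) with a peak at ZT 15.6 ± 1.27 h (SE), and it did not pass (edgeR adjusted p = 0.295, unadjusted p = 0.0204), where 0.495% of all genes passed. Dark means exceeded light means in 7 of 8 combinations of sex and letter; the exception, males of letter B, had a single dark library, which was 1 of the 3. Of all genes, 7.96% had a higher dark mean in 7 or more of 8 combinations in D1 neurons, and 1.44% in 8 of 8. By sex, the amplitude was 0.090 in males and 0.12 in females, and neither passed (edgeR adjusted p = 0.563 and 1, where 0.0418% and 0.0279% of all genes passed). The difference of the Sirt1 rhythms, D1 minus D2, had an amplitude of 0.066 ± 0.051 (SE) with an adjusted p of 0.806 in edgeR, where 0.0139% of all genes passed. A rhythm of Sirt1 in D2 but not in D1 neurons was thus not shown.

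Nampt, the gene of the 4 best known as a clock target, had no called rhythm in either cell type. In D1 neurons its lowest, median and highest values were 49.3, 58.3 and 71.3 CPM at ZT2, 50.2, 56.4 and 65.0 CPM at ZT6 and 46.2, 60.1 and 76.2 CPM at ZT10 (n = 8 each). They were 46.2, 54.9 and 62.2 CPM at ZT14 (n = 7), 46.3, 55.8 and 61.3 CPM at ZT18 (n = 6) and 50.5, 52.1 and 59.5 CPM at ZT22 (n = 8). The ranges overlapped at all times, and the highest value, 76.2 CPM, was that of the ZT10 library that stands apart. The fitted log2 amplitude was 0.078 ± 0.041 (SE) with a peak at ZT 6.05 (edgeR adjusted p = 0.541), and the upper end of its 95% interval was 0.16. In D2 neurons the means at the 6 times lay between 54.7 ± 9.38 CPM at ZT22 and 57.8 ± 8.10 CPM at ZT10 (SD, n = 8 each). The amplitude there was 0.024 ± 0.041 (SE), with an upper end of the 95% interval of 0.10 and an adjusted p of 1. An amplitude cannot be below 0, but the lower ends were -0.0028 in D1 and -0.057 in D2 neurons. The upper ends are thus rough guides and not exact bounds.

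What set the Nampt values of single D2 libraries apart was the replicate letter. Libraries of letter A held 55.6 to 68.4 CPM (n = 12) and those of letter B 56.7 to 71.7 CPM (n = 10), while those of letter C held 42.1 to 55.4 CPM and those of letter D 47.5 to 54.5 CPM (n = 12 each). Every A or B library was thus above every C or D library, at all 6 times and in both sexes. This was not particular to Nampt: 9.43% of all genes were split in the same direction and 7.42% in the other. In D1 neurons Nampt averaged 62.3 ± 5.86, 62.6 ± 8.26, 52.6 ± 4.51 and 51.8 ± 3.87 CPM in letters A, B, C and D (SD, n = 12, 9, 12 and 11), with overlapping ranges; in D1 neurons 0.0139% of all genes were split in that direction and 0.0418% in the other. Depth moved with the letters in D2 neurons, from 14225115 to 24665262 counts in letter A, 10783444 to 23735861 in B, 8965613 to 14606921 in C and 6872165 to 13012978 in D, and its part in the Nampt split was not tested. In a fit that blocks on the letter, the amplitude of Nampt in D2 neurons was 0.020 and the adjusted p 0.679. Within single letters the D2 amplitude was 0.030 to 0.093 and the fitted peaks were scattered over ZT 4.49, 8.98, 12.2 and 19.6.

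**Figure D3:**
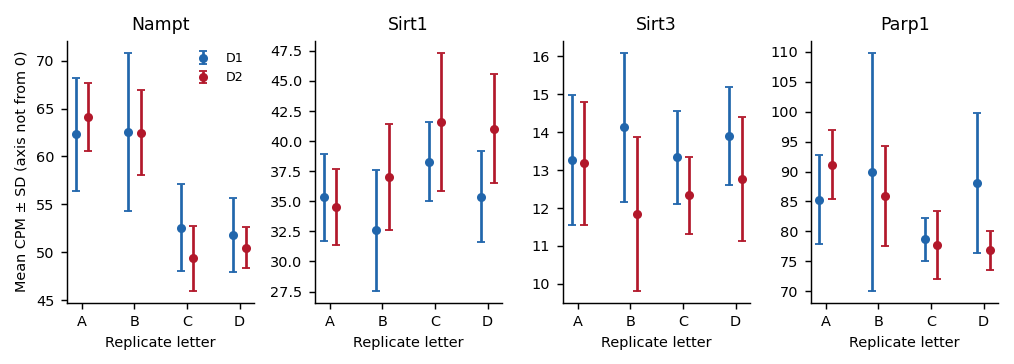
Mean CPM ± SD of each gene (panels) in the libraries of replicate letters A to D (horizontal axis), with D1 neurons in blue and D2 neurons in red. Nampt lies near 62 CPM in letters A and B of D1 neurons and near 52 CPM in C and D, with a similar step in D2 neurons, while Sirt1 in D2 neurons steps the other way, being lowest in letter A.

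Sirt3 and Parp1 had no called rhythm either. Sirt3 means in D1 neurons were 13.8 ± 1.52, 14.5 ± 1.26 and 14.2 ± 1.64 CPM at ZT2, 6 and 10 and 13.0 ± 1.80, 13.0 ± 1.28 and 13.0 ± 1.29 CPM at ZT14, 18 and 22 (SD, n = 6 to 8). The light means were above the dark means in 7 of the 8 combinations of sex and letter, the opposite order to Sirt1, as for 7.83% of all genes in 7 or more of 8, and the amplitude of 0.090 ± 0.038 (SE, peak at ZT 6.59) did not pass (edgeR adjusted p = 0.423). In D2 neurons Sirt3 means lay between 12.1 ± 2.06 CPM at ZT6 (SD, n = 7) and 13.1 ± 1.66 CPM at ZT18 (SD, n = 8), with an amplitude of 0.049 ± 0.041 (SE, adjusted p = 0.998). Of the 4 genes Sirt3 had the largest D1 minus D2 difference in rhythm, with an amplitude of 0.13 ± 0.05 (SE), which did not pass (adjusted p = 0.609, unadjusted p = 0.0676). Parp1 means lay between 80.8 ± 6.23 CPM at ZT6 and 87.4 ± 20.4 CPM at ZT22 in D1 libraries (SD, n = 8 each). The ZT22 mean held the 136.4 CPM of the male letter B library, 1 of the 3 that stand apart; without those 3 it was 80.4 ± 5.06 CPM (SD, n = 7), the lowest of the 6 times, and the highest was 87.3 ± 13.7 CPM at ZT14 (SD, n = 7). In D2 libraries they lay between 78.5 ± 5.33 CPM at ZT22 and 84.1 ± 9.10 CPM at ZT14 (SD, n = 8 each). Its amplitudes were 0.050 ± 0.036 in D1 and 0.039 ± 0.030 in D2 neurons (SE; adjusted p = 0.689 and 0.980), with approximate upper ends of the 95% interval of 0.12 and 0.098.

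**Figure D4:**
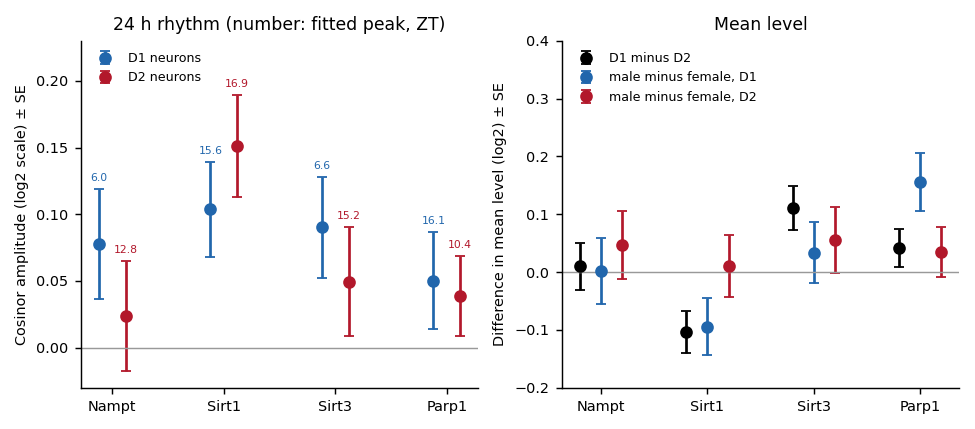
Left, cosinor amplitude (log2 scale, ± SE) of each gene in D1 (blue) and D2 neurons (red), with the fitted peak time printed above each bar; right, differences in mean level (log2, ± SE) between D1 and D2 neurons (black) and between males and females in D1 (blue) and D2 neurons (red). Sirt1 in D2 neurons has the largest amplitude, and Sirt1 and Sirt3 lie on opposite sides of 0 in the D1 minus D2 difference.

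The 2 sirtuins differed between the cell types in opposite directions. Sirt1 was at 25.8 to 44.8 CPM in D1 neurons, with a median of 35.9 (n = 45), against 29.9 to 49.2 CPM with a median of 38.4 in D2 neurons (n = 46). Sirt3 was at 10.6 to 17.3 CPM in D1 neurons, with a median of 13.7, against 8.61 to 16.3 CPM with a median of 12.65 in D2 neurons. For both genes most libraries lay in the range shared by the cell types. Sirt1 was lower in D1 neurons by a log2 difference of -0.10 ± 0.04 (SE; edgeR adjusted p = 0.0305), and Sirt3 was higher in D1 neurons by 0.11 ± 0.04 (SE; adjusted p = 0.0258); these are 1.07-fold and 1.08-fold. Of all genes, 9.86% passed as lower and 9.44% as higher in D1 neurons, so such differences were common (19.3% in all). With the replicate letter as a block the log2 differences were -0.11 for Sirt1 and 0.11 for Sirt3 (adjusted p = 0.0018 and 0.0101), where 45.8% of all genes passed, 19.5% as lower and 26.2% as higher in D1 neurons.

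By time of day, the mean of Sirt1 was lower in D1 neurons at all 6 times, with a D1 minus D2 difference of -0.236 CPM at ZT10 and -4.67 CPM at ZT14, the extremes. Sirt3 was higher in D1 neurons at 5 of the 6 times, by up to 2.41 CPM at ZT6, with a difference of -0.121 CPM at ZT18. Within letters, the D1 mean of Sirt1 was 35.3 ± 3.61 CPM and the D2 mean 34.5 ± 3.14 CPM in letter A (SD, n = 12 each), so the order was turned there. In letter D the D1 mean was 35.4 ± 3.79 CPM (SD, n = 11) and the D2 mean 41.0 ± 4.54 CPM (SD, n = 12). Sirt3 had a D1 mean of 14.1 ± 1.96 CPM (SD, n = 9) and a D2 mean of 11.8 ± 2.03 CPM (SD, n = 10) in letter B, and 13.3 ± 1.71 against 13.2 ± 1.62 CPM in letter A (SD, n = 12 each). Without letter D the Sirt1 difference was -0.056 (adjusted p = 0.566), and without the 3 libraries that stand apart it was -0.084 (adjusted p = 0.0681). The Sirt3 difference was between 0.090 and 0.12 without letter B, C or D (adjusted p = 0.112, 0.105 and 0.0850), and 0.15 without letter A (adjusted p = 0.00432). The cell types come from different Cre lines, so line and cell type cannot be told apart.

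Nampt and Parp1 were at similar levels in both cell types. Nampt averaged 57.0 ± 7.5 CPM over the 45 D1 libraries (SD) and 56.3 ± 7.57 CPM over the 46 D2 libraries (SD), a log2 difference of 0.0098 with a 95% interval from -0.071 to 0.090. For Parp1 the D1 mean was 85.0 ± 11.8 CPM and the D2 mean 82.8 ± 8.33 CPM (SD), a log2 difference of 0.042 with an interval from -0.023 to 0.11. Neither passed (edgeR adjusted p = 0.881 for Nampt and 0.377 for Parp1). Without letter A the Parp1 difference was 0.096 and passed (edgeR adjusted p = 0.0378, unadjusted p = 0.0166), and without letter D it was -0.0039 (adjusted p = 0.983). Without the 3 libraries that stand apart, which are of letters B and D, it was 0.016 (edgeR adjusted p = 0.742). The share of all genes that passed without letter A was not counted, so that pass is not read as particular to Parp1.

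Between the sexes no difference in level passed for any of the 4 genes in either cell type, where 0.0418% of all genes passed in D1 and 0.216% in D2 neurons. The largest was that of Parp1 in D1 neurons, at 73.8 to 136.4 CPM with a median of 84.0 in males (n = 22), against 70.9 to 90.9 CPM with a median of 78.8 in females (n = 23). The log2 difference was 0.16 ± 0.05 (SE; edgeR adjusted p = 0.207, unadjusted p = 0.00342). It passed with the replicate letter as a block (0.15, adjusted p = 0.0389), where 7.26% of all genes passed. The 3 male libraries that stand apart held 106.7, 105.3 and 136.4 CPM, 3 of the 4 highest values in males. Without them the male mean was 85.3 ± 9.27 CPM (SD, n = 19), against 80.8 ± 5.39 CPM in females (SD, n = 23), and the log2 difference 0.096 (adjusted p = 0.688), or 0.094 with the block (adjusted p = 0.138). Sirt1 in D1 neurons averaged 34.4 ± 3.74 CPM in males (SD, n = 22) and 36.8 ± 4.36 CPM in females (SD, n = 23), a log2 difference of -0.094 ± 0.049 (SE, adjusted p = 0.347). The other sex differences were between 0.0025 and 0.055 on the log2 scale. No difference of a sex effect between D1 and D2 neurons passed for the 4 genes (edgeR adjusted p = 0.836 to 0.999; 0% of all genes passed).

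The 4 genes did not share a common course over the groups. Over the 24 means of log2 CPM by cell type, sex and time, which share libraries and scaling, Pearson's r between pairs of the 4 genes ran from -0.284 (Sirt1 with Sirt3) to 0.365 (Nampt with Sirt3). With the means centred within each cell type and sex, which takes out level differences such as that between D1 and D2 neurons, r was -0.0495 for Sirt1 with Sirt3 and ran from -0.268 (Sirt3 with Parp1) to 0.342 (Nampt with Sirt3). Among 9808 genes with a mean of at least 10 CPM, those most like Sirt1 were ENSMUSG00000053907 (r = 0.889) and ENSMUSG00000024789 (r = 0.888). The genes most like Nampt, Sirt3 and Parp1 had r of 0.816, 0.794 and 0.899. These are descriptions of the pattern over groups, with no statement about function.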

How the data were processed

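The file that the authors deposited holds raw counts per gene, whole numbers with no normalisation, for 14355 genes and 91 libraries; a filter on log CPM is named in its title. Per the submitters' processing notes, FastQC 0.11.7, HISAT2 and HTSeq 0.10.0 were used and the builds GRCm38 and GRCh38 are named; the threshold of the filter and the version of HISAT2 are not given in the sources used here. From these counts, edgeR 4.0.16 in R 4.3.3 gave CPM with TMM-adjusted totals and quasi-likelihood F-tests, adjusted by Benjamini and Hochberg's method across the 14355 genes, with calls at an adjusted p under 0.05. A mean, a cosine and a sine term (period 24 h) were fitted for each sex within each cell type; rhythm was tested on both terms, averaged over the sexes. Standard errors and 95% intervals come from the fitted covariance. For amplitudes the intervals are normal approximations around the estimate, which are poor near 0 and can reach below it. D1, D2 and all libraries were fitted separately. The fits were also run on simulated data, with planted sizes larger than those found for the 4 genes and no correlation between libraries of a letter. That run therefore does not speak for the sizes reported here, and its outcome is not used.

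The reported fits have no term for the letter. In D2 neurons all 243 same-letter pairs had a correlation of deviations from group means above 0.1 (lowest 0.193), against 66.8% of 223 pairs in D1 neurons, so the fit with the letter as a block is given beside results whose call it changes. Nothing in the labels states that replicates come from separate animals, so p-values measure the spread between libraries. No pair of libraries within a group looked like a repeat (lowest mean chi-square per gene 4.24 over 129 pairs, where sampling noise gives about 1). Alternatives were RLE size factors, limma 3.58.1 (voom, quality weights), DESeq2 1.42.0, filterByExpr, the letter as a block, each letter left out, the 3 libraries that stand apart left out, depth as a covariate, time as a factor and a single rhythm for both sexes; the block without those 3 libraries was added later. The 4 genes, the lists and the libraries that stand apart were chosen with earlier results of these data known. The genes named were the 4 members and, for each, the genes with the highest Pearson r over groups, of which 2 are given by identifier; lists of other NAD genes and of cell type markers were not scored.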

Additional observations from a re-analysis of the deposited data

Results flagged for a closer look

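Values of 1 library far from the others of its cell type and time were looked for in 48 sets of 6 to 8 libraries, of which chance alone would give about 1 in 20. There were 2, both of Parp1. The male D1 library at ZT22 with letter B held 136.4 CPM, where the other 7 D1 libraries at that time lay between 70.9 and 87.1 CPM; it is 1 of the 3 libraries that stand apart, with many genes at 0. The female D2 library at ZT14 with letter A held 103.9 CPM, where the other 7 D2 libraries at that time lay between 74.3 and 87.4 CPM.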

How the results depend on the processing

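Over the 4 genes and all comparisons, 622 alternative values stayed on their side of the threshold, 13 lost it and 5 gained it, and no called value changed direction. The share of all genes that passed was counted only for the reported fits and for the replicate block on all libraries. A pass in any other setting is thus not read as particular to these genes. The called rhythm of Sirt1 in D2 neurons was lost with limma voom (amplitude 0.11, adjusted p = 0.0543) and with time as a factor (adjusted p = 0.559). It was also lost without any 1 letter (amplitude 0.14 to 0.17), where leaving out a letter leaves fewer libraries. It passed with DESeq2 (adjusted p = 0.0134), RLE size factors (0.0403), depth as a covariate (0.00946) and the replicate block (0.000182). The D1 minus D2 difference of Sirt1 ran from -0.15 to -0.056 without single letters and was lost without B, C or D, and also without the 3 libraries that stand apart (-0.084). That of Sirt3 ran from 0.090 to 0.15 and was lost without B, C or D. That of Parp1 ran from -0.0039 to 0.096 being below 0 without D and passing without A. With the replicate block both sirtuin differences passed (-0.11 and 0.11, adjusted p = 0.0018 and 0.0101), where 45.8% of all genes passed. The block without the 3 libraries was an alternative chosen after seeing the data. Both differences passed there too (-0.096 and 0.098, adjusted p = 0.0047 and 0.0235), and the share of all genes passing was not counted. In D1 neurons the sex difference of Parp1 passed with the replicate block (0.15, adjusted p = 0.0389), and no longer once the 3 libraries were also left out (0.094, adjusted p = 0.138). The difference in the Nampt rhythm between the sexes in D1 neurons passed with limma voom alone (amplitude 0.19, adjusted p = 0.0492, unadjusted p = 0.00968). In edgeR its amplitude was 0.020 (unadjusted p = 0.969), where 0% of all genes passed. The share passing with limma voom was not counted, so a sex difference in the Nampt rhythm was not shown. Beside the sex difference of Parp1 in D1 neurons and the Sirt1 rhythms of each sex in D2 neurons given above, the block changed no call of the 4 genes. The causes of the lost calls were not tested.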
